A study of Homo sapiens with 4 samples.

Results

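Clone sh-G2 is 1 of 2 stable GALNT3 knockdown clones of A2780s, a human ovarian cancer cell line, and it was hybridised against ctrl, a single mock-transfected clone of the same line, on 2 of the 4 arrays of the series. GALNT3 encodes an enzyme that starts mucin-type O-glycosylation by placing the first sugar on serine and threonine residues of secreted and membrane proteins. Both knockdown clones stably carried the same GALNT3 shRNA in the pSilencer 4.1 puro vector. They were picked after 2 weeks of puromycin at 5 µg/ml. The study isolated ctrl as a stably transfected clone too, with the same vector but without the shRNA, and kept its cell lines in medium with fetal bovine serum. Part of the labels write the line of ctrl as A27803, and it was taken to be the A2780s clone that the study describes. Total RNA of sh-G2 was labelled with Cy5 on array 1 and with Cy3 on array 2, with ctrl in the other dye, on Agilent whole-genome arrays. The 2 arrays of the other clone, sh-G1, held the same ctrl and were used to ask which changes of sh-G2 were absent there.

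Each of the 2 groups was 1 clone, so the spread between clones could not be estimated, and neither could that of ctrl. The labels do not say whether the arrays of a clone held separate RNA extracts, so the p-values measure only the spread between arrays, which may be technical. All values are log2 ratios of knockdown clone over ctrl from normalised intensities unless another scale is named. Of 41000 probes, 39152 were well above background in at least 1 channel on every array, and they covered 16879 named genes, each represented by its brightest probe. In sh-G2, 96.0% of spots were well above background on array 1 and 88.1% on array 2.

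A probe was counted as higher or lower when array 1 and array 2 of sh-G2 both reached a 1.5-fold ratio with the same sign. By that count 216 probes were higher (0.552% of those measured) and 557 were lower (1.42%), which corresponded to 124 genes higher (0.735%) and 343 genes lower (2.03%). The sh-G2 coefficient of limma's linear model across the 4 arrays, with a term for the dye, called 389 probes higher (0.994%) and 938 lower (2.4%) than ctrl at an adjusted p under 0.05, among them 751 of the 773 probes counted by fold, and by brightest probe 188 genes higher (1.11%) and 517 lower (3.06%).

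A change was taken as absent in sh-G1 when neither sh-G1 array reached 1.5-fold in the direction of sh-G2. This left 157 of the 773 probes, 77 higher (0.197%) and 80 lower (0.204%), or 35 genes higher (0.207%) and 54 lower (0.32%). For most of these probes the clones differed by less than 2-fold: the median difference, sh-G2 minus sh-G1, was 0.67 for the higher and -0.59 for the lower ones, and 25 and 18 of them differed by 2-fold or more. The direct test of the difference, limma's contrast of sh-G2 minus sh-G1 in which ctrl cancels, passed for 11 of the 77 and 8 of the 80 probes, which gave 6 genes higher and 7 genes lower. Over all probes the same contrast called 15 higher (0.0383%) and 33 lower in sh-G2 (0.0843%), or 10 genes higher (0.0592%) and 21 lower (0.124%), while 2916 probes had an unadjusted p under 0.05. Without the dye term it called 3 and 2.

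**Figure D1:**
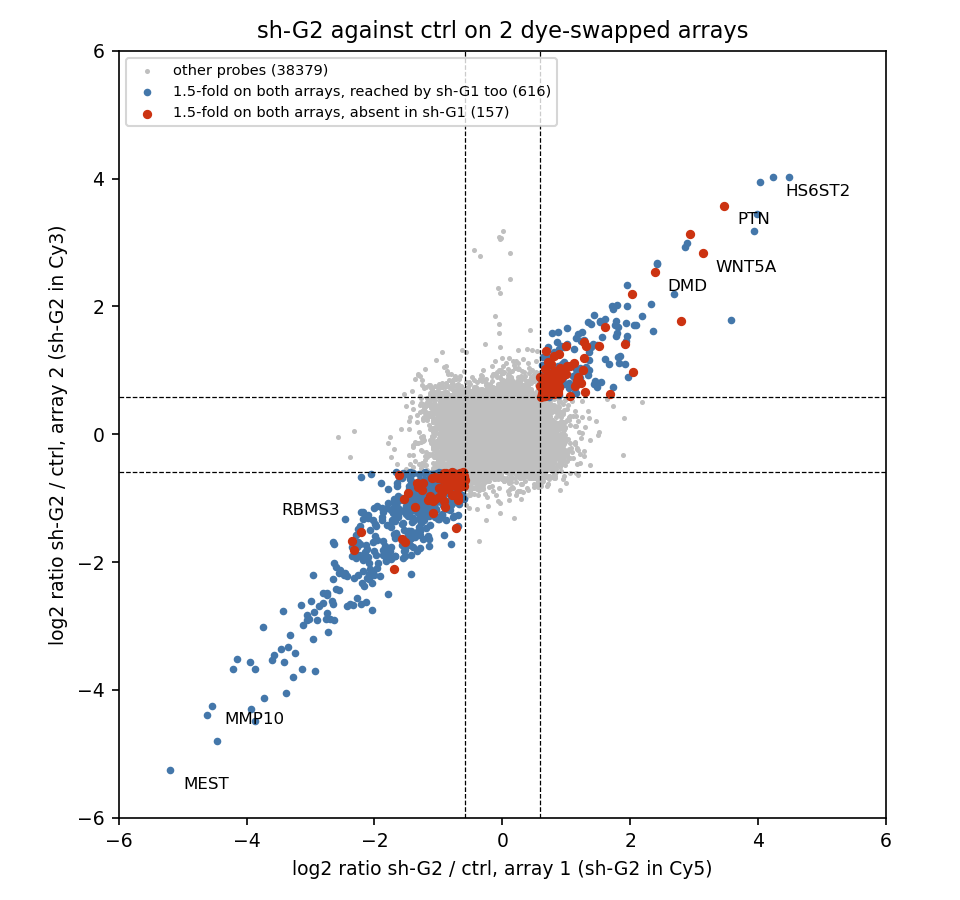
Log2 ratio of sh-G2 over ctrl for 39152 probes on array 1 (x axis, sh-G2 in Cy5) and array 2 (y axis, sh-G2 in Cy3), with dashed lines at 1.5-fold. The 616 blue probes reached that fold in the same direction on an sh-G1 array too, the 157 red probes did not, and PTN, WNT5A and DMD lie at the far end of the red probes.

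The targeted gene could not be used to check the labels. GALNT3 (NM_004482) gave median spot signals of 73 for sh-G2 and 91.5 for ctrl on array 1, and of 73 and 64.5 on array 2, before any correction. Its signal in ctrl lay 0.25 and 0.23 above the lowest level at which spots counted as well above background, on the log2 scale, and the sh-G2 channel passed that level on 1 of the 2 arrays. The ratios were 0.12 and -0.14, with a mean of -0.01 (limma adjusted p = 0.984), so a decrease was not measurable at this signal. CDH1, the epithelial cadherin, had ratios of -0.04 and 0.03. Its spot signals were low, 119 for sh-G2 and 185 for ctrl on array 1, and 189 and 161 on array 2. They lay below those of the leukocyte marker PTPRC (161 and 216, then 215 and 205), so a change of CDH1 may not be measurable. MUC1, a mucin that carries O-glycans, had ratios of -0.11 and -0.01. CTNNB1, which encodes β-catenin, gave -0.47 and 0.11, and its second probe disagreed between arrays by more, with -0.78 and 0.36.

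PTN and WNT5A stood out among the genes that were higher in sh-G2 and absent in sh-G1. PTN encodes pleiotrophin, a secreted heparin-binding growth factor, and WNT5A encodes a secreted WNT ligand best known for β-catenin-independent signalling and cell movement. On the 2 arrays PTN (chromosome 7) had ratios of 3.48 and 3.58 in sh-G2 and of -2.54 and -2.31 in sh-G1. The clones thus lay on opposite sides of ctrl, 11.5-fold higher in sh-G2 and 5.36-fold lower in sh-G1, and the difference of 5.95 ± 0.11 (SE) had a limma adjusted p of 0.00231. A second PTN probe agreed in direction, with 2.93 and 3.14 in sh-G2 against -1.38 and -1.14 in sh-G1. WNT5A (chromosome 3) had ratios of 3.15 and 2.84 in sh-G2 and of -0.06 and -0.15 in sh-G1. Its difference was 3.10 ± 0.10 (SE; limma adjusted p = 0.00467), with sh-G2 7.96-fold higher than ctrl and sh-G1 within 1.08-fold of ctrl. On the sh-G1 arrays the WNT5A spot signals were low, 200 and 137 in ctrl and 120 and 115 in sh-G1. They lay below those of PTPRC there (289 and 172, then 189 and 156), so a decrease of WNT5A in sh-G1 may not be measurable. The fold in sh-G2 likewise rests on a dim ctrl signal.

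The signals before correction showed the same pattern. For PTN the spot signal of sh-G2 was 9246 against 1301 for ctrl on array 1 and 12134 against 902 on array 2. For WNT5A it was 1192 against 198.5 and 1195.5 against 150. The sh-G2 channel was the brighter on both arrays for both genes, in Cy5 and in Cy3 alike.

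RBMS3, an RNA-binding protein, and HOXA13, a homeobox transcription factor of the distal limb and urogenital tract, showed the widest differences in the other direction, and their values follow further on. The 250 bases before the annotated start of these 4 genes are shown, taken from RefSeq for the build GRCh38.p14, with every CG dinucleotide in capitals. PTN's lies at chr7:137343734-137343983 on the minus strand, that of WNT5A at chr3:55487307-55487556 on the minus strand, that of RBMS3 at chr3:29280821-29281070 on the plus strand and that of HOXA13 at chr7:27200092-27200341 on the minus strand, each written 5′ to 3′ along its own gene.
PTN: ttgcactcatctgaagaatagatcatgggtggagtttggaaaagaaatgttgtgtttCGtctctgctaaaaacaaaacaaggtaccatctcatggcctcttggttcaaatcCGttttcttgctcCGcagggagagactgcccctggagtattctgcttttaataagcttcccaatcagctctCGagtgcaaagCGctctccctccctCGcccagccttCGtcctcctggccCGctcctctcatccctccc
WNT5A: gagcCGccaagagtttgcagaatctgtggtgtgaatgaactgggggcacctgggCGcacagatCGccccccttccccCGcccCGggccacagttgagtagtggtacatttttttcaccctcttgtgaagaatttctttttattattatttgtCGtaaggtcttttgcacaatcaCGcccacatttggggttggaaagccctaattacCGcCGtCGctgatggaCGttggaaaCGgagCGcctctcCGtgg
RBMS3: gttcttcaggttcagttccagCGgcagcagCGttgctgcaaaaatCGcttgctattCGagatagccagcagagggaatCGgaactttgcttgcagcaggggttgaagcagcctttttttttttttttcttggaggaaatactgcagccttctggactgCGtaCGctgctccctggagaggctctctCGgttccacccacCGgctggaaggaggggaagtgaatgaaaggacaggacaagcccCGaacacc
HOXA13: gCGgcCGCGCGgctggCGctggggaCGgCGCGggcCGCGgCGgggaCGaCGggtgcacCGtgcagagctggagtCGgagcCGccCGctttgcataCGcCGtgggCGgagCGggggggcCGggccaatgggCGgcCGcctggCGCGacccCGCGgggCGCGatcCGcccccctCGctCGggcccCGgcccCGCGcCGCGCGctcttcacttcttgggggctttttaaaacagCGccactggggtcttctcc
HOXA13 held 40 CG dinucleotides in this window, more than 97.8% of the 35116 promoters in the table, whose median was 11. PTN held 8, RBMS3 10 and WNT5A 14, with 18 at a second annotated WNT5A start. The letters TATAAA were not found on either strand in any of these windows, and 10.7% of all promoters held them. The arrays measured RNA and give no value for these sequences.

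A further 4 genes, DMD with a large and the others with smaller differences, were higher in sh-G2, absent in sh-G1 and called by the contrast. DMD, which encodes dystrophin, had ratios of 2.39 and 2.54 in sh-G2 and of -0.15 and 0.00 in sh-G1 at its brightest probe (difference 2.54 ± 0.13, limma adjusted p = 0.0193). The 4 DMD probes did not agree, since the other three gave 1.00 and 1.38, 0.17 and 0.15, and -0.55 and -0.69 in sh-G2. The DMD gene makes several transcripts from separate starts, and each probe measures a single stretch of it. CSMD3, a large membrane protein with complement-type domains, had 1.30 and 1.38 in sh-G2 and -0.01 and -0.02 in sh-G1 (adjusted p = 0.0289). SLCO4C1, an organic anion transporter, had 0.90 and 1.03 against -0.77 and -0.37 (adjusted p = 0.0363), and its other probe was near ctrl in both clones. ALB, albumin, had 0.92 and 0.88 against -0.25 and -0.23, at the edge of the threshold (adjusted p = 0.0497). Spot signals in sh-G1 were low for ALB (86 and 91.5), SLCO4C1 (103 and 120.5) and CSMD3 (169.5 and 186). They lay below or near those of PTPRC in sh-G1 (189 and 156), so the size of a decrease there may not be measurable.

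**Figure D2:**
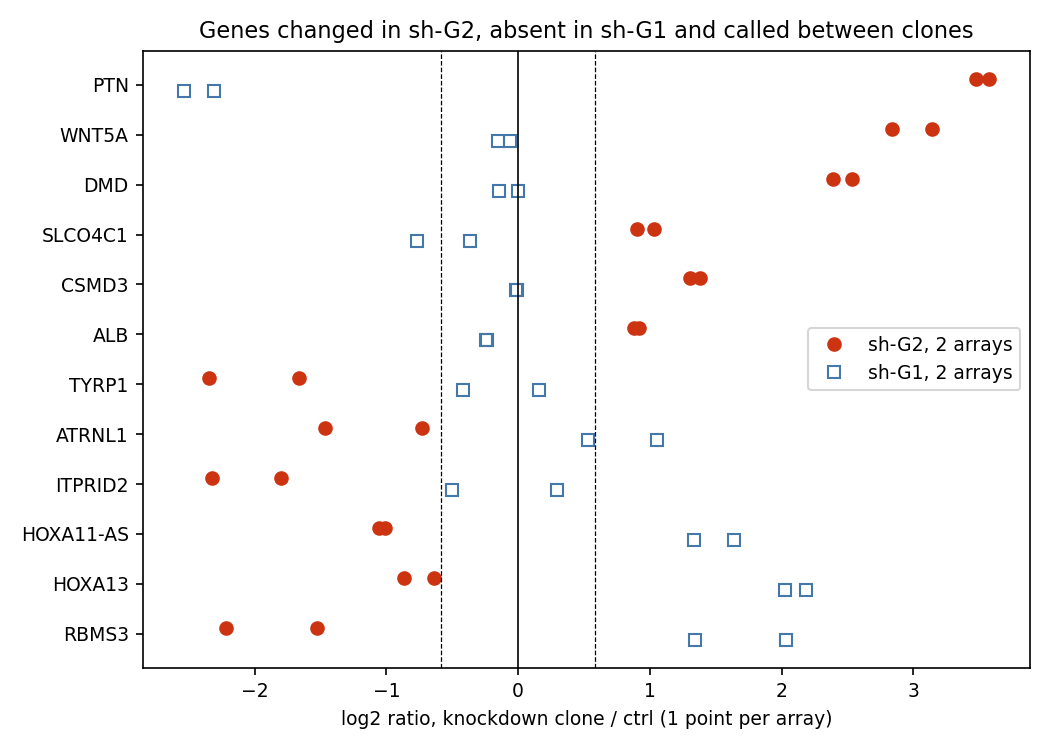
Log2 ratio of knockdown clone over ctrl on each array (x axis) for 12 of the 13 genes (y axis) that were at least 1.5-fold higher or lower on both sh-G2 arrays, absent in sh-G1 and called by limma's contrast; filled circles are the 2 sh-G2 arrays, open squares the 2 sh-G1 arrays, dashed lines 1.5-fold. PTN lies at 3.48 and 3.58 in sh-G2 and at -2.54 and -2.31 in sh-G1, while WNT5A, DMD and CSMD3 lie near 0 in sh-G1; the selection itself keeps circles and squares apart.

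In the other direction 7 genes were lower in sh-G2, absent in sh-G1 and called by the contrast, and 6 of them are described here. RBMS3 (chromosome 3) had ratios of -2.22 and -1.53 in sh-G2 and of 1.34 and 2.03 in sh-G1, a difference of -3.56 ± 0.09 (SE; limma adjusted p = 0.00309). Its spot signal in sh-G2 was 100 against 797 for ctrl on array 1 and 172 against 465 on array 2. The clones again lay on opposite sides of ctrl, 3.66-fold lower in sh-G2 and 3.22-fold higher in sh-G1, although 2 other RBMS3 probes showed differences of only -0.69 and -0.32 that were not called. TYRP1, a melanosomal enzyme, had -2.35 and -1.66 against -0.42 and 0.16 (adjusted p = 0.0193). ITPRID2, which interacts with inositol trisphosphate receptors, had -2.33 and -1.80 against -0.50 and 0.29 (adjusted p = 0.0193), and a second probe that was not above background in sh-G2 gave no measurable difference. ATRNL1, a membrane protein related to attractin, had -0.73 and -1.47 against 1.05 and 0.53 (adjusted p = 0.0193), with its other 2 probes not called.

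**Figure D3:**
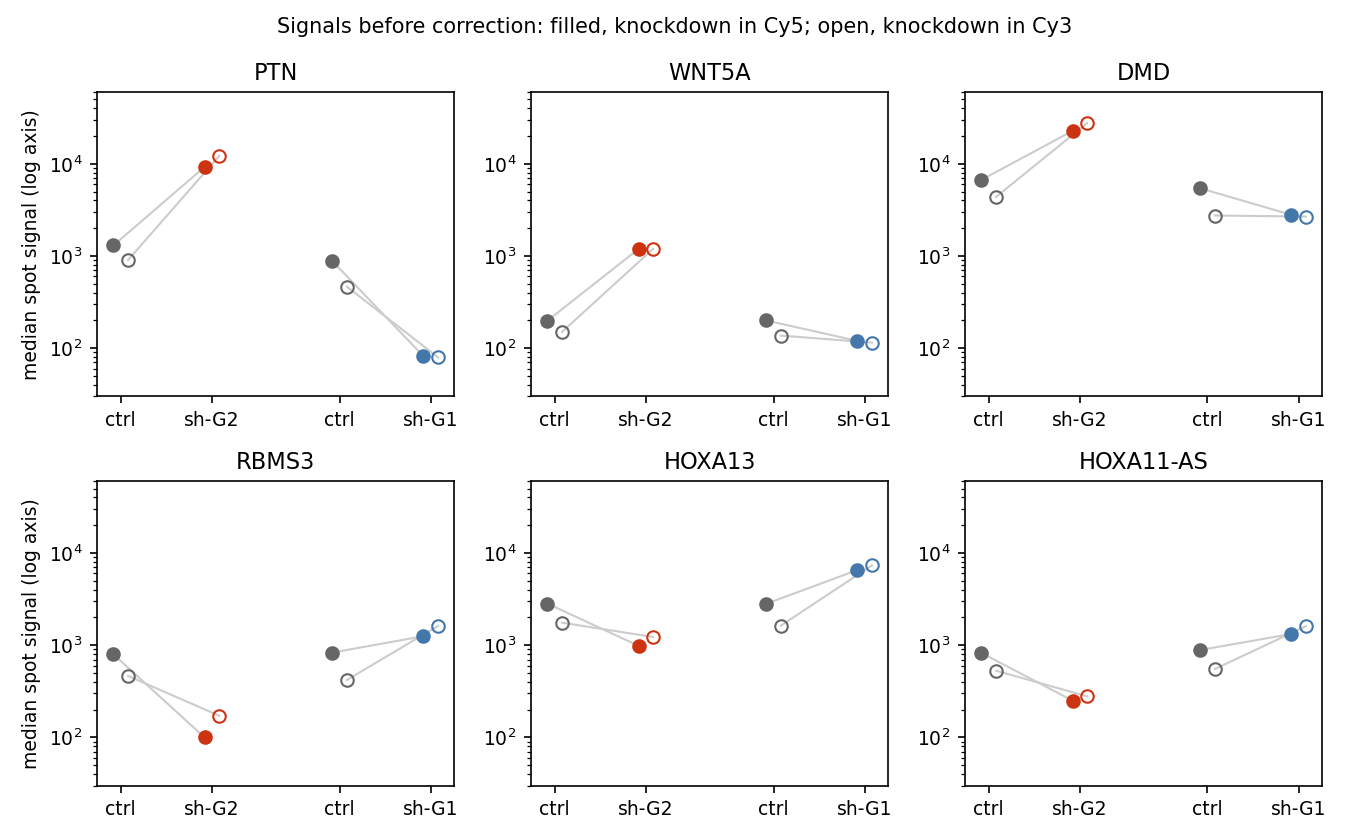
Median spot signal before correction (y axis, log scale) of the brightest probe of 6 genes, for ctrl and sh-G2 on the sh-G2 arrays and for ctrl and sh-G1 on the sh-G1 arrays; grey lines join the channels of 1 array, filled points have the knockdown clone in Cy5 and open points in Cy3. PTN rises from 1301 to 9246 and from 902 to 12134 between ctrl and sh-G2, and RBMS3 falls from 797 to 100 and from 465 to 172.

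HOXA13 and HOXA11-AS were the other called genes, and they are neighbours in the HOXA cluster on chromosome 7. HOX genes encode transcription factors that give cells their position along the body axis, and the HOXA cluster's far end is used in the reproductive tract. HOXA13 had ratios of -0.86 and -0.64 in sh-G2 and of 2.02 and 2.19 in sh-G1 (difference -2.86 ± 0.13, limma adjusted p = 0.0166). Its second probe differed in the same direction, with -0.66 and -0.12 against 1.42 and 1.95. HOXA11-AS, a noncoding RNA antisense to HOXA11, had -1.05 and -1.01 against 1.34 and 1.64 (difference -2.52 ± 0.11, adjusted p = 0.0167). HOXA11 itself had -0.03 and -0.14 in sh-G2, where it was above background on 1 of the 2 arrays, and 0.58 and 0.67 in sh-G1 (adjusted p of the difference 0.150). HOXA9 was lower in sh-G2, with -0.69 and -1.03, near ctrl in sh-G1, with 0.19 and 0.22, and was not called (adjusted p = 0.0971).

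The values of the other cluster genes in sh-G2 lay closer to ctrl. HOXA2 to HOXA7 had mean ratios between -0.22 and -0.02 in sh-G2, and HOXA10 had 0.28 and -0.57. Beyond the cluster, EVX1, HIBADH and TAX1BP1 had means of -0.06, 0.04 and 0.01 in sh-G2. In sh-G1, EVX1 had a mean of 0.00, while HIBADH had 0.32 and 0.60 and TAX1BP1 0.59 and 0.70, differences of -0.42 and -0.63 in the direction of HOXA13 that were not called (adjusted p of 0.548 and 0.239). Over 42 HOX genes and cluster transcripts measured, 4 were lower in sh-G2, 3 of them absent in sh-G1, and 1 was higher. Of all genes, 2.03% were lower, 0.32% were lower and absent in sh-G1, and 0.735% were higher. The other lower gene, HOXC8, had -0.85 on both arrays, and the higher one, the HOXC transcript HOTAIR, had 1.94 and 1.46; both had sh-G1 ratios in the same direction.

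**Figure D4:**
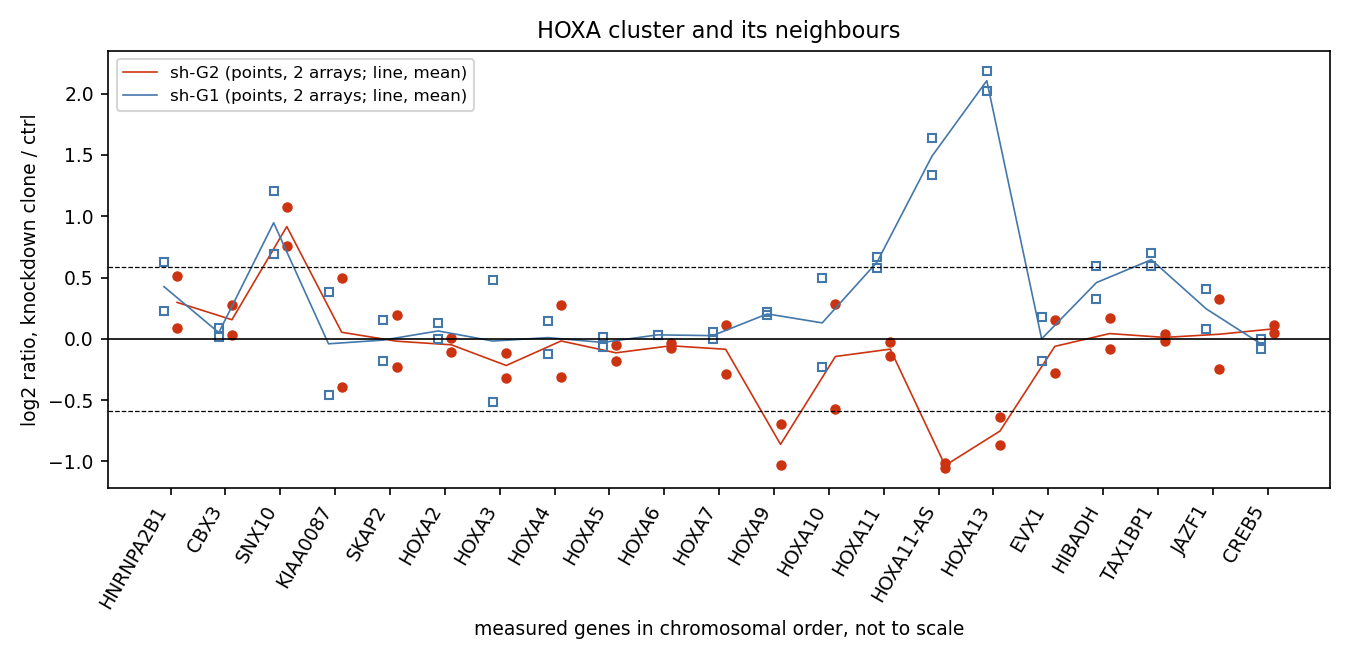
Log2 ratio of knockdown clone over ctrl (y axis) for the HOXA cluster and its neighbours in chromosomal order (x axis, not to scale), with 2 arrays per clone as points, the mean as a line and dashed lines at 1.5-fold. HOXA9, HOXA11-AS and HOXA13 lie below the lower line in sh-G2, HOXA11-AS and HOXA13 lie above the upper line in sh-G1, and HOXA2 to HOXA7 stay between the lines in sh-G2.

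There were 6 probes that went opposite ways in the clones by 1.5-fold on all arrays: 2 of PTN and 1 each of RBMS3, HOXA13, HOXA11-AS and FZD4. FZD4, a WNT receptor, had ratios of -0.65 and -0.63 in sh-G2 and of 0.85 and 1.13 in sh-G1, but the difference of -1.63 ± 0.14 was not called (limma adjusted p = 0.0640). A second FZD4 probe lay near ctrl in both clones.

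WNT ligands act through Frizzled receptors on neighbouring cells. Of 61 WNT ligands, receptors and regulators measured, 2 were higher (WNT5A and the receptor FZD7), 1 was lower (FZD4), and all 3 were absent in sh-G1. Over all genes 0.735% were higher and 2.03% lower, and 0.207% and 0.32% were so and absent in sh-G1. FZD7 had 0.71 and 1.13 in sh-G2 against 0.01 and 0.45 in sh-G1 and was not called (adjusted p = 0.210). The median over the list was -0.04 in sh-G2, beside -0.01 over all genes. PTN was the 1 member of 16 of the pleiotrophin and midkine list that was absent in sh-G1. Its paralogue MDK, midkine, was lower in both clones, with -1.28 and -1.36 in sh-G2.

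Receptor tyrosine kinases and their ligands carry growth signals into the cell. Of 69 measured, 2 were higher and 6 lower in sh-G2, and 3 of these were absent in sh-G1, none called by the contrast. The shares over all genes were 0.735% higher and 2.03% lower, with 0.207% and 0.32% absent in sh-G1. The ephrin receptor EPHA3 had 1.26 and 1.01 in sh-G2 against 0.26 and 0.37, the fibroblast growth factor receptor FGFR3 had -1.54 and -1.01 against -0.37 and 0.02, and the platelet-derived growth factor receptor PDGFRB had -1.09 and -1.04 against -0.50 and -0.47. EPHA3 and FGFR3 each had other probes close to ctrl. PDGFC, a platelet-derived growth factor, was among the highest genes of sh-G2, with 2.41 and 2.67, and was also higher in sh-G1, with 0.65 and 1.52 (adjusted p of the difference 0.124). A dimmer PDGFC probe had only 0.53 and 0.64 in sh-G2, and -0.04 and 0.20 in sh-G1.

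Heparan sulfate enzymes set the sulfation that such growth factors bind, and 1 of them, HS6ST2, had the largest mean ratio of any gene in sh-G2. This 6-O-sulfotransferase had ratios of 4.24 and 4.03, 17.5-fold higher than ctrl, and 3.62 and 3.77 in sh-G1, while a dimmer HS6ST2 probe had -0.25 and 0.18 in sh-G2. SULF2, which removes 6-O-sulfates outside the cell, had -1.57 and -1.64 in sh-G2 and -0.17 and -0.15 in sh-G1, a difference that was not called (adjusted p = 0.0680). SULF1, its relative, was near ctrl in sh-G2, with -0.11 and 0.21, and higher in sh-G1, with 1.03 and 1.45 (difference -1.19 ± 0.09, adjusted p = 0.0468). Of 40 enzymes of O-glycan and heparan sulfate synthesis, 1 was higher and 2 lower in sh-G2. No mucin of 10 measured reached 1.5-fold, and of 17 GALNT family members 1, GALNT14, did, with -0.70 on both arrays. These counts stand beside 0.735% higher and 2.03% lower over all genes.

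Other changes were found in both clones but were deeper in sh-G2. MMP10, a secreted matrix metalloproteinase, had ratios of -4.54 and -4.25 in sh-G2 and of -2.54 and -2.45 in sh-G1 (difference -1.90 ± 0.14, limma adjusted p = 0.0445). Its chromosome 11 neighbours MMP1 and MMP3 were lower too, with -2.18 and -2.14 and with -2.73 and -3.10 in sh-G2, and their differences were not called. BMP2, a bone morphogenetic protein, had -2.99 and -2.60 against -1.42 and -0.96 (adjusted p = 0.0193), and its sh-G2 signal was above background on 1 of the 2 arrays. MSX1, a homeobox gene that BMP signals switch on, had -2.67 and -2.60 against -0.96 and -0.94 (adjusted p = 0.0446). In the other direction RNF128, a ubiquitin ligase, had 2.89 and 2.99 against 0.79 and 1.09 (difference 2.00 ± 0.10, adjusted p = 0.0181), while its dimmer probe had 0.45 and 0.65 and was not called.

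The lists that hold these genes had more lower than higher members, as all genes did, of which 2.03% were lower and 0.735% higher. Of 69 members of the BMP and TGF-beta pathway, 1 was higher (BMP7, 1.38 and 1.37) and 4 lower (BMP2, BMP4, TGFB2 and the antagonist SOST), and none was absent in sh-G1. Of 44 matrix proteases and inhibitors, 1 was higher and 5 lower. Among 79 lineage transcription factors, 7 were lower and none higher, with SOX2, a factor of stem and progenitor cells, at -4.47 and -4.79; GATA6 counted as absent in sh-G1 by a narrow margin, with -0.81 and -0.68 in sh-G2, where it was above background on 1 of the 2 arrays, and -0.55 and -0.51 in sh-G1 (adjusted p of the difference 0.705). The EMT list, regulators of the shift from epithelial to mesenchymal state, held 11 genes, of which SNAI2 (-1.01 and -0.69) and ZEB2 (-1.46 and -1.64) were lower. SNAI2 was absent in sh-G1, with -0.13 and 0.35, and was not called (adjusted p = 0.135).

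Matrix proteins gave the longest list. Of 92 measured, 7 were higher and 18 lower in sh-G2, beside 0.735% and 2.03% of all genes. The small proteoglycan OGN and the collagen COL5A2, 2 of the higher ones, were absent in sh-G1 and not called. OGN had 1.12 and 1.12 in sh-G2 and 0.43 and 0.49 in sh-G1. COL5A2 had 0.70 and 0.90 against 0.25 and 0.57 at its brightest probe, and a second probe with 0.87 and 1.02 in sh-G2 reached 1.5-fold on an sh-G1 array, with 0.46 and 0.77. LUM and DCN, the proteoglycans lumican and decorin, moved less in sh-G2 than in sh-G1. LUM had -2.08 and -2.01 in sh-G2 and -4.65 and -4.51 in sh-G1 (difference 2.53 ± 0.12, limma adjusted p = 0.0181). DCN had -2.07 and -2.11 against -4.12 and -4.37 (difference 2.15 ± 0.14, adjusted p = 0.0300). With KERA and BTG1 they formed a run of 4 neighbouring genes on chromosome 12 that were lower in sh-G2. HAPLN1, which links hyaluronan to proteoglycans, was higher, with 2.86 and 2.93.

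Ion channels and neuronal adhesion proteins set how excitable cells fire and connect. SCN9A, a voltage-gated sodium channel, had 2.79 and 1.77 in sh-G2 and 0.54 and 0.39 in sh-G1, and missed the threshold (adjusted p = 0.109). The potassium channel gene KCNJ2 was lower, with -0.78 and -0.95, and missed the fold threshold narrowly in sh-G1, with -0.42 and -0.58 (adjusted p of the difference 0.374). KCNMA1, another potassium channel gene, had -0.70 and -0.96 in sh-G2 against 0.02 and 0.48 at its brightest probe, which passed neither the test against ctrl (adjusted p = 0.0616) nor the contrast (adjusted p = 0.236). A dimmer KCNMA1 probe was called by the contrast (-0.91 and -1.05 against 0.21 and 0.04, adjusted p = 0.0497), and the other three lay near ctrl in sh-G2, with means of -0.04, -0.02 and -0.12. In all, 2 of 59 channel genes were higher and 7 lower, beside 0.735% and 2.03% of all genes. SLITRK6, a neuronal transmembrane protein, was near ctrl in sh-G2, with -0.33 and -0.11, and higher in sh-G1, with 1.06 and 1.33 (adjusted p = 0.0264). It was 1 of the 19 probes of 33 called lower by the contrast whose sh-G2 ratio was not 1.5-fold on both arrays. PCDH19, a protocadherin, had -1.70 and -2.11 in sh-G2 and -0.53 and -0.22 in sh-G1 (adjusted p = 0.130).

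**Figure D5:**
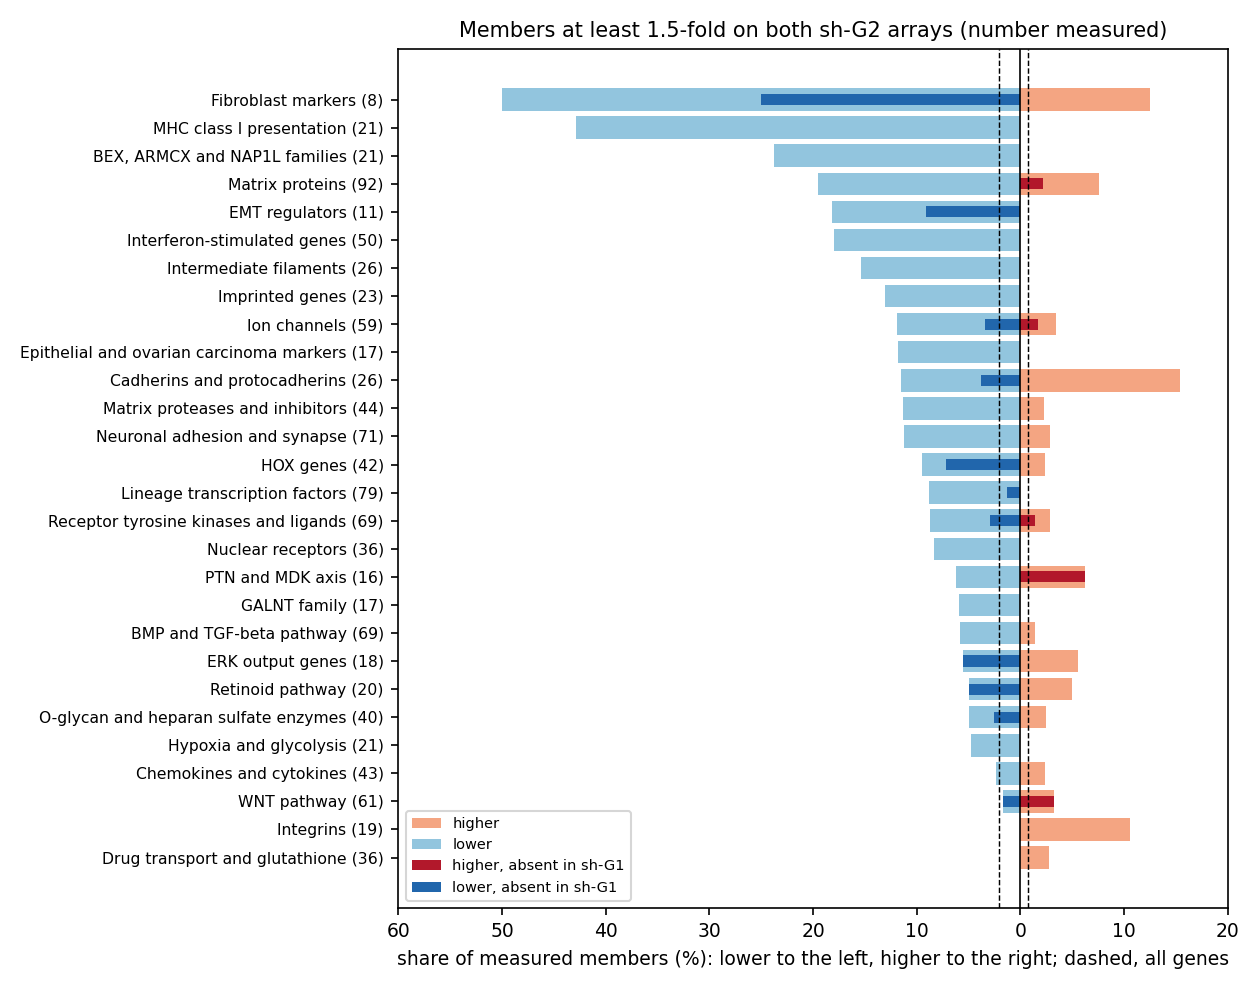
Share of the measured members of each gene list (y axis, number measured in brackets) that were at least 1.5-fold lower (bars to the left) or higher (bars to the right) on both sh-G2 arrays, in percent (x axis), with narrow dark bars for members absent in sh-G1 and dashed lines at the shares over all genes, 2.03% lower and 0.735% higher. Lists without a changed member are not drawn, and the bar of MHC class I presentation, 9 of 21 genes lower, has no dark part.

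Antigen presentation was lower in sh-G2 and not particular to it. Of 21 MHC class I genes, 9 were lower, among them the heavy chain HLA-B (-1.56 and -1.03), the peptide transporter TAP1 (-1.53 and -1.73) and the proteasome subunit PSMB9 (-2.75 and -2.49), with a list median of -0.59 in sh-G2 and -0.62 in sh-G1. Of 50 interferon-stimulated genes, 9 were lower and none higher, including the tryptophan-degrading enzyme IDO1 (-3.13 and -3.68) and the GTPase GBP1 (-2.21 and -2.66). None of the members of either list was absent in sh-G1 or called by the contrast. No gene reached 1.5-fold on both arrays among 39 proliferation genes, 21 p53 targets, 19 cholesterol synthesis genes, 17 genes of the unfolded protein and amino acid response and 28 cancer-testis antigens. Only 0.735% of all genes were higher and 2.03% lower, so a list this short without a changed member lies near that share.

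Most of the largest ratios of sh-G2 were also shared. AMIGO2, an adhesion protein, had 3.99 and 3.45 in sh-G2 and was 9.77-fold higher in sh-G1, and ZFHX4, a zinc finger homeobox gene, had a mean of 3.55 against 3.04. PWWP3B had a mean of 3.99 in sh-G2 and 2.21 in sh-G1, just outside the threshold (adjusted p = 0.0511). At the low end MEST, an imprinted gene, had -5.19 and -5.26, 37.4-fold lower than ctrl. BEX1, NAP1L3 and ARMCX2, X-linked genes of separate families, had means of -4.50, -4.17 and -3.83. UCHL1, a neuronal deubiquitinase, had -3.73 and -4.12, and FLRT3, an adhesion protein, had -3.87 and -3.68. SPATS2L had a mean of -4.11 against -2.55 in sh-G1 (adjusted p = 0.0511). The differences between clones for these genes were not called.

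Markers of other cell types gave the following values. Of 17 epithelial and ovarian carcinoma markers, all well above background on both sh-G2 arrays, KRT8 (-1.12 and -0.91) and KRT18 (-1.92 and -2.22) were lower and none was higher. Of 8 fibroblast markers, COL3A1 was higher (0.83 and 0.97) and DCN, LUM, PDGFRB and THY1 were lower. No endothelial marker of 7 and no leukocyte marker of 8 reached 1.5-fold, with 6 and 8 of them above background on both sh-G2 arrays. Among all genes the shares were 0.735% higher and 2.03% lower. Leukocyte markers passed the background mark as often as epithelial ones did, so that mark is not read as expression here, and the part of other cells in these results was not tested.

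The genes changed in sh-G2 and absent in sh-G1 were spread over the chromosomes. They made up at most 1.53% of the measured genes of a chromosome, on chromosome 4 (4 higher and 6 lower of 654), and none lay on chromosomes 16 or 22. No 3 neighbouring genes were absent in sh-G1 in the same direction. At the fold threshold, OCA2 counted as lower with -1.45 and -0.585 and SLC25A29 did not with -0.950 and -0.584.

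PTN and WNT5A were called between clones under each alternative that was tried, including the fit without the dye term and those without any 1 array. RBMS3, HOXA13, HOXA11-AS, DMD, RNF128 and LUM lost the call only without the dye term (adjusted p of 0.0982 to 0.149). The remaining 12 of the 20 called genes named here also lost it without an sh-G1 array or under another setting, and all 20 kept their direction.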

How the data were processed

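Total RNA of 2 GALNT3 knockdown clones of A2780s was compared with ctrl on 4 two-colour Agilent arrays of 1 slide, in a dye swap for each clone. The authors scanned them with Agilent Feature Extraction (version 10.5.1.1 per the file headers, 8.5.1.1 in the submitters' processing notes, build hg18 per the file headers), and the deposited files give for each spot the median intensity, the median local background intensity and the software's log10 ratio of Cy5 over Cy3. The deposited value table repeats that log10 ratio for 3 arrays; for the second sh-G1 array the deposited column is a score, the software's error of the ratio, and was not used.

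From the deposited intensities, background was corrected with normexp (offset 50) and log2 ratios were normalised by loess within arrays with limma 3.58.1 in R 4.3.3. The offset shrinks the ratios of dim probes. Control and outlier-marked spots were left out, spots of a probe averaged and ratios turned to knockdown over ctrl. A probe entered when on each array sh-G1 or sh-G2, or ctrl, stood well above background. Median spot signals were 451.5 to 802.5 in Cy3 and 463.25 to 558 in Cy5, over backgrounds of 38 to 41, and with 4 arrays the precision is low. Between the dye-swapped arrays of sh-G2 the turned ratios of all probes correlated with r = 0.19 across probes, which are not independent replicates, and between arrays of like dye orientation of both clones with 0.61 and 0.73, so a dye term was kept in the model.

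limma's lmFit and eBayes with trend were fitted with 3 coefficients, 1 for each clone and 1 for the dye orientation (1 residual degree of freedom, 3.848 from the prior), two-sided, with Benjamini-Hochberg adjustment over 39152 probes and a threshold of 0.05. The code was tried on data simulated from the model's own spread and dye effects, independent between probes. There 75.5% of differences of 1 and 98.5% of differences of 2 on the log2 scale were recovered by the contrast of the clones, with 5.84% false calls. Those rates follow from the model and do not give the power on the real arrays. Of the real probes absent in sh-G1, 25 higher and 18 lower ones differed by 2-fold or more, and the contrast passed for 11 and 8. The symbols of 25393 of 41000 probes came from the RefSeq gene table, and the others were counted and not named.

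Genes named are GALNT3, CDH1, CTNNB1 and MUC1, up to 12 genes in each direction with the largest difference among those changed in sh-G2, absent in sh-G1 and called, the 10 largest ratios in each direction, genes opposite in the clones, and list members that were absent in sh-G1 or called, at most 4 a list. A few genes that the rule names or that neighbour named genes are not reported here. Other list members are given as examples, chosen after their values were seen. The members and gene lists were chosen with earlier results of these data known. Alternatives changed the background correction, normalisation, filter, outlier marks, dye term, trend, threshold, selection, values and arrays used.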

Additional observations from a re-analysis of the deposited data

Results flagged for a closer look

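The difference between the clones, sh-G2 minus sh-G1 in mean log2 ratio, passed limma's contrast for 20 of the genes named. The values were 5.95 for PTN, 3.10 for WNT5A, 2.54 for DMD, 1.53 for SLCO4C1, 1.35 for CSMD3 and 1.14 for ALB, which were higher in sh-G2 and absent in sh-G1. They were -3.56 for RBMS3, -2.86 for HOXA13, -2.52 for HOXA11-AS, -1.96 for ITPRID2, -1.89 for ATRNL1 and -1.88 for TYRP1, which were lower in sh-G2 and absent in sh-G1. Both clones changed in the same direction for RNF128 (2.00), MMP10 (-1.90), BMP2 (-1.61), LUM (2.53), DCN (2.15) and MSX1 (-1.68). SULF1 (-1.19) and SLITRK6 (-1.41) were near ctrl in sh-G2 and higher in sh-G1. Each value rests on 2 arrays per clone and 1 clone on each side.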

How the results depend on the processing

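The number of probes at least 1.5-fold higher on both sh-G2 arrays went from 216 to 361 with the software's own log ratio, to 361 with the series matrix values, to 75 at 2-fold and to 358 by the mean of the arrays, and that of lower probes from 557 to 284 at 2-fold. Probes absent in sh-G1 went from 77 higher and 80 lower to 150 and 133 with the software's log ratio, to 27 and 43 at 2-fold and to 230 and 300 by the mean of the arrays. Opposite probes went from 6 to 11 with the software's log ratio and to 11 by the mean. The contrast of the clones called 15 higher and 33 lower probes, against 28 higher with the software's log ratio, 23 higher with no filter on dim probes, 9 higher without the trend and 19 lower where both channels had to be above background. Probes absent in sh-G1 and called numbered 11 higher and 8 lower, against 13 lower with the software's log ratio, 7 higher with median centring and 5 higher without the trend. The cause of these shifts was not tested, except that a stricter fold or selection keeps fewer probes by construction.

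The dye term pairs the arrays by orientation. With no dye term (no replicate block), the contrast called 3 higher and 2 lower, the comparison with ctrl 77 higher and 298 lower in place of 389 and 938, and 3 higher and 0 lower probes were absent in sh-G1 and called. PTN and WNT5A stayed called, and 18 of the 20 named genes lost the call (adjusted p from 0.0982 to 0.611).

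Leaving out 1 array in turn, with no dye term in the fits, moved the counts by the following ranges: 856 to 1185 higher and 831 to 2376 lower by fold, 174 to 426 and 508 to 1287 against ctrl, 11 to 177 and 12 to 303 by the contrast, 80 to 994 and 106 to 1639 absent in sh-G1, 7 to 110 and 4 to 210 absent and called, 9 to 11 opposite, and 42 to 58 and 124 to 171 changed list members in place of 30 and 107. The remaining array of a clone decides alone there and is assumed to vary like the other clone's. Without the first sh-G1 array 7 of the 20 genes lost the call (SLCO4C1, CSMD3, ALB, ATRNL1, MMP10, MSX1 and SLITRK6), and without the second 10 did (CSMD3, ALB, ITPRID2, TYRP1, MMP10, BMP2, DCN, MSX1, SULF1 and SLITRK6). Leaving out either sh-G2 array kept all 20. Every one of the 20 genes kept its direction throughout.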
